A study of Mus musculus with 8 samples.

Results

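The genes described here are 34 genes of the integrated stress response whose transcription is linked to the factor ATF4, together with the amino acid genes that the same response serves. The rule takes them by name and uses no measured value, although the list was drawn up with earlier results of these data known. They are the rows of the expression table whose gene symbol was on a list of 34. All 34 had a row among the 55414 genes of the table. The symbol *Ddit3* appeared on 2 rows, so that there were 35 rows. Of the 34 genes, 31 were among the 13526 genes tested, for which 2 or more of the 8 libraries had to reach 1 TPM. *Fgf21*, *Gdf15* and *Slc7a3* did not reach it.

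The libraries were made from B16F10, a mouse melanoma line in culture, after removal of ribosomal RNA. There were 4 groups of 2 libraries each, harvested after 24 h. WT cells and CypD KO cells were kept at 21% O2. In CypD KO cells *Ppif*, the gene of the mitochondrial peptidyl-prolyl isomerase cyclophilin D, had been cut with Cas9, and clones had been selected in puromycin. Control cells carrying empty pcDNA and CypD OE cells carrying pcDNA with *Ppif*, both selected in G418, were kept at 1% O2. The comparisons ask how gene expression differs with the loss of CypD in normal oxygen and with added CypD in low oxygen. Oxygen, vector and drug selection differ together between WT and Control and cannot be told apart there. Transfection with Cas9 and selection in puromycin are stated for CypD KO and not for WT. The loss of CypD cannot be told apart from them. Whether a line was 1 clone, and whether the 2 libraries of a group came from separate cultures, is not stated in the sources used here. The p-values therefore measure the spread between these libraries, which may be technical.

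The integrated stress response begins when kinases that sense amino acid shortage, misfolded protein in the endoplasmic reticulum, double-stranded RNA or mitochondrial and haem stress phosphorylate the initiation factor eIF2. General translation then falls, while the mRNA of ATF4 is translated more, so that ATF4 protein can rise without a change of *Atf4* mRNA. ATF4, with C/EBP partners, transcribes genes that make, import and attach amino acids, and in longer stress genes such as *Ddit3* (CHOP), *Trib3* and *Chac1*. RNA-seq measures the transcripts of these genes and neither ATF4 protein nor phosphorylated eIF2. In bulk RNA, fewer cells of a kind and less RNA per cell cannot be told apart.

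ATF4 and C/EBP factors bind a composite element with the letters TGATGNAA, where N is any base, and the promoter windows of the members were searched for these letters on both strands. RefSeq windows (GRCm38.p6, 250 bases before to 50 bases after a gene's start) were at hand for 30 of the 34 members. The letters were in the window of 8 of them (26.7%), against 4.51% of 27025 genes and 3.97% of 32851 windows. The closer form TGATGCAA was in 5 of the 30 (16.7%), against 1.03% of genes. The members were listed for their link to ATF4, so a higher share may follow from that choice and is not a test. The 8 matches are shown because they place the known element beside the values described for the same genes, as 30 bases read 5′ to 3′ on the gene's strand, with the matched letters (or their reverse complement) in capitals. A match is a description of the letters and not of binding.
Asns, chr6:7693214-7693243, gene on the - strand: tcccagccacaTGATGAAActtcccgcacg
Chac1, chr2:119351038-119351067, gene on the + strand: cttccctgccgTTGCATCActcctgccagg
Fgf21, chr7:45615611-45615640, gene on the - strand: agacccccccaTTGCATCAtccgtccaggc
Nupr1, chr7:126625562-126625591, gene on the - strand: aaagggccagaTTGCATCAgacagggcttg
Pck2, chr14:55540152-55540181, gene on the + strand: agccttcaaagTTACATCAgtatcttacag
Pycr1, chr11:120643833-120643862, gene on the - strand: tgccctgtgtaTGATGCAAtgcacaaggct
Slc1a4, chr11:20332699-20332728, gene on the - strand: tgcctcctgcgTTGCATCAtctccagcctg
Trib3, chr2:152344028-152344057, gene on the - strand: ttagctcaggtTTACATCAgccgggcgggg

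Values are TPM, the abundance of a gene's transcripts per length on a scale with the same total in each library. Fold changes are differences of group means of log2(TPM + 1), which understate the changes of genes with low TPM. A difference is called higher or lower where limma's p was under 0.05 after Benjamini-Hochberg adjustment for the 13526 genes. *Ppif* itself had 50.7 and 49.99 TPM in WT, against 10.4 and 12.1 TPM in CypD KO. In Control it had 44.6 and 42.3 TPM, and 50.3 and 49.3 TPM where the label was CypD OE (limma log2 fold change 0.19 ± 0.07 (SE), adjusted p = 0.0794). Directions drawn from those 2 libraries therefore rest on their label.

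All 7 melanocytic markers (*Mitf*, *Sox10*, *Dct*, *Tyr*, *Tyrp1*, *Pmel* and *Mlana*) were expressed in every group. Their sum was 15700 to 15800 TPM in WT, 12400 to 12600 TPM in CypD KO, 20400 to 21000 TPM in Control and 13600 to 13800 TPM in CypD OE. Single markers did not all follow the sum. *Tyr* had a mean of 39.3 TPM in WT and 157 TPM in CypD KO, *Sox10* 237 TPM in Control and 272 TPM in CypD OE, and *Mlana* 2002 TPM in Control and 2050 TPM in CypD OE. The 6 leukocyte markers summed to 3.5 to 3.84 TPM in WT and 22.3 to 23.4 TPM in CypD KO, of which *Cd68* was 21.9 and 23.3 TPM. In Control they summed to 4.2 to 4.81 TPM and in CypD OE to 1.15 to 1.91 TPM. *Cd3e* and *Tyrobp* were at 0 in all libraries, and *Ptprc* at 0 to 0.02 TPM. The 6 fibroblast markers summed to 15.6 to 17.7 TPM in WT, 34.2 to 37.2 TPM in CypD KO, 19.0 to 21.0 TPM in Control and 9.23 to 11.3 TPM in CypD OE. *Postn* (34.8 and 31.2 TPM) made up most of the sum in CypD KO, whereas *Col1a2* had a mean of 7.95 TPM in WT and 1.63 TPM in CypD KO. *Dcn* was at 0 in all libraries. The part of such cells in the results was not tested.

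CypD KO cells at 21% O2 had more transcripts of the stress regulators and feedback genes of the response than WT cells. *Atf4* itself did not pass the test, and several serine, cysteine and transporter genes were lower. Of the 31 members tested, 19 (61.3%) were higher and 6 (19.4%) lower in CypD KO than in WT. Of all genes tested, 30.1% were higher and 18.4% lower. Among members the median log2 fold change was 0.35, against 0.09 over all genes. In the libraries labelled CypD OE, kept with their Control at 1% O2, it was instead the biosynthetic enzymes and transporters that were mostly higher. There 17 members (54.8%) were higher and 2 lower, against 19.0% and 18.3% of all genes, with a median log2 fold change of 0.45 against 0.00. Under median-of-ratios rescaling of the TPM, 47.9% of all calls in CypD KO against WT were of higher genes, in place of 62.1%. Then 16 of the 31 members were higher and 7 lower, against 3204 and 3481 of the 13526 genes tested.

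**Figure D1:**
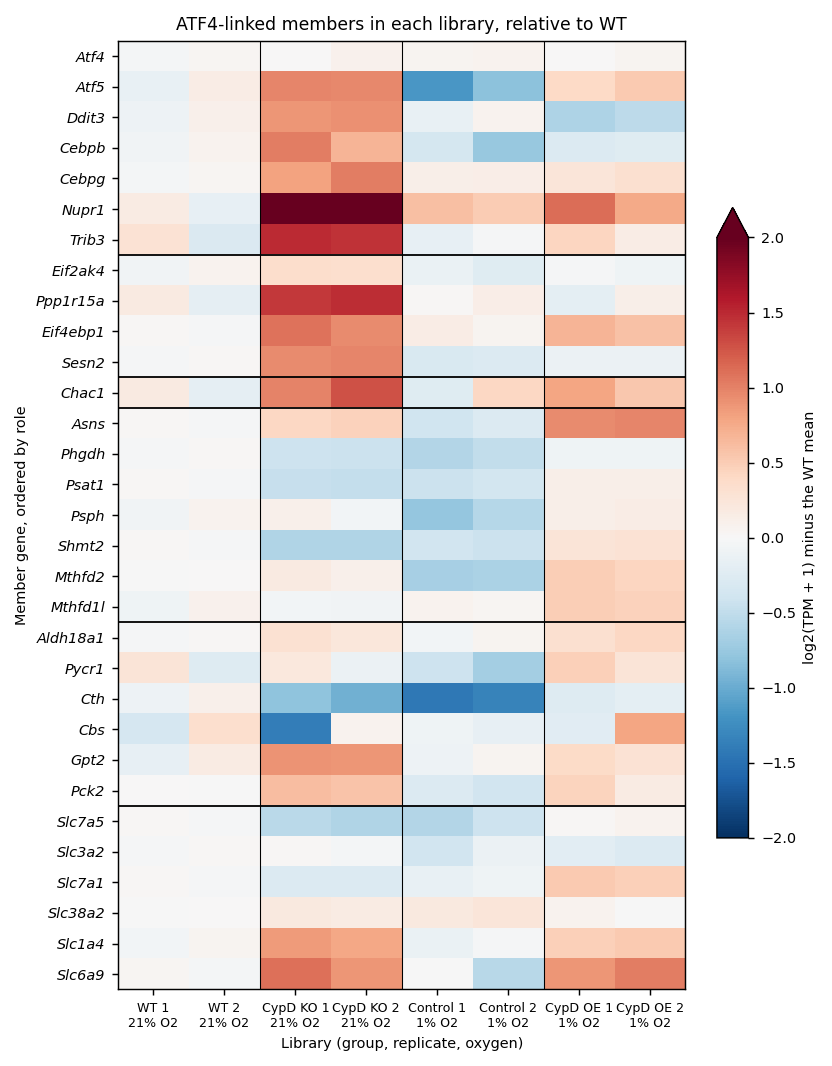
Heat map of the 31 tested members (rows, ordered by role, with lines between roles) in the 8 libraries (columns), as log2(TPM + 1) minus the WT mean, with colours ending at -2 and 2. The first rows, the regulators and feedback genes, are red in both CypD KO libraries, apart from Atf4, which is near white in all 8, and the serine and transport rows Phgdh, Psat1, Shmt2 and Slc7a5 are blue in both CypD KO and both Control libraries.

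*Atf4* (chromosome 15 of GRCm39, 80139372 to 80141745), the central transcription factor, had 213 and 225 TPM in WT and 219.6 and 234 TPM in CypD KO. Its TPM were 226 and 231 in Control and 220.3 and 227 in CypD OE. The groups overlapped in both comparisons. Its log2 fold change was 0.05 (95% interval -0.05 to 0.15, limma adjusted p = 0.395) in CypD KO. In CypD OE it was -0.03 (-0.14 to 0.07, limma adjusted p = 0.602). Under median-of-ratios rescaling the value in CypD KO was -0.065 (limma adjusted p = 0.289). *Atf4* had the highest TPM of the 7 regulators in each library, leaving aside a second row with the symbol *Ddit3*.

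*Ddit3* (CHOP; chromosome 10, 127124268 to 127132163) encodes a C/EBP family factor linked to cell death under lasting stress. It had 43.1 and 50.2 TPM in WT, against 86.8 and 88.1 TPM in CypD KO, a ratio of means of 1.87. At 1% O2 the values were 41.8 and 49.0 TPM in Control and 29.9 and 32.0 TPM in CypD OE, a ratio of 0.68. Both CypD KO libraries were above, and both CypD OE libraries below, all 4 libraries of WT and Control. The log2 fold changes were 0.90 ± 0.10 (SE, limma adjusted p = 0.000365) and -0.53 ± 0.10 (limma adjusted p = 0.00534). They differed from each other by 1.43 ± 0.14 (limma adjusted p = 0.000246).

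A second row with the symbol *Ddit3*, ENSMUSG00000116429, has a single transcript of 105 bases that lies inside *Ddit3* and is shorter than a sequenced fragment. The row gave 68.9 and 0 TPM for WT, against 410 and 283 TPM for CypD KO. For Control it gave 0 and 40.2 TPM and for CypD OE 0 and 20.3 TPM. Reads of the pair cannot be told apart, and neither comparison passed the test for that row (limma adjusted p = 0.124 and 0.908).

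*Nupr1* (chromosome 7, 126222414 to 126230033), which encodes a small stress-induced chromatin protein, had the largest fold change of the 31 tested members in CypD KO, leaving aside the second *Ddit3* row. It had 4.47 and 3.38 TPM in WT, against 27.8 and 30.1 TPM in CypD KO. At 1% O2 it had 6.46 and 5.95 TPM in Control and 9.62 and 7.28 TPM in CypD OE. The log2 fold change in CypD KO was 2.61 ± 0.16 (SE, limma adjusted p = 2.96e-05), a ratio of means of 7.38. That in CypD OE, 0.38 ± 0.16, did not pass the test (limma adjusted p = 0.1).

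*Trib3* (chromosome 2, 152179337 to 152191958) encodes a pseudokinase that ATF4 and CHOP induce and that restrains ATF4. It had 5.29 and 3.24 TPM in WT, against 13.5 and 13.02 TPM in CypD KO. In the 1% O2 groups it had 3.63 and 4.1 TPM in Control and 5.95 and 4.71 TPM in CypD OE. Groups did not overlap in either comparison, but the test was passed with CypD KO (log2 fold change 1.46 ± 0.20, SE, limma adjusted p = 0.00105) and not with CypD OE (0.37 ± 0.20, limma adjusted p = 0.186). For *Nupr1* and *Trib3* the changes of the comparisons differed (limma adjusted p = 0.000294 and 0.0177).

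*Atf5* (chromosome 7, 44461680 to 44466082) encodes a relative of ATF4 that is likewise translated more under stress and is linked to the mitochondrial unfolded protein response. It was the regulator that was higher in both comparisons. It rose from 14.5 and 17.96 TPM in WT to 32.9 and 32.4 TPM in CypD KO, and from 6.64 and 8.73 TPM in Control to 21.6 and 23.8 TPM in CypD OE. The log2 fold changes were 0.97 ± 0.14 (SE, limma adjusted p = 0.00143) and 1.46 ± 0.14 (limma adjusted p = 0.000377). Their difference did not pass the test (-0.48, 95% interval -0.96 to -0.01, limma adjusted p = 0.088).

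*Cebpg* (chromosome 7, 34745847 to 34756011), whose product pairs with ATF4 on its targets, had 21.6 and 22.8 TPM in WT, against 39.5 and 46.1 TPM in CypD KO (log2 fold change 0.91 ± 0.08, SE, limma adjusted p = 0.000152). Its TPM were 24.2 and 24.5 in Control and 26.5 and 27.9 in CypD OE (0.15 ± 0.08, limma adjusted p = 0.181). *Cebpb* (chromosome 2, 167530835 to 167532338), for another C/EBP partner, had 4.42 and 4.92 TPM in WT, against 10.5 and 8.05 TPM in CypD KO (log2 fold change 0.85 ± 0.18, limma adjusted p = 0.00729). Its TPM were 3.45 and 2.35 in Control and 3.68 and 3.78 in CypD OE (0.29 ± 0.18, limma adjusted p = 0.246). In all, 6 of the 7 regulators (85.7%) were higher in CypD KO and none was lower, against 30.1% and 18.4% of all genes tested. In CypD OE only *Atf5* was higher, and *Ddit3* was lower (14.3% each, against 19.0% and 18.3% of all genes).

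Of the genes that sense shortage or close the loop, all 4 were higher in CypD KO, against 30.1% of all genes tested. *Ppp1r15a* (GADD34, chromosome 7, 45172340 to 45175692) encodes a subunit of the phosphatase that removes phosphate from eIF2. It had 11.96 and 9.19 TPM in WT, against 29.7 and 31.1 TPM in CypD KO, a ratio of means of 2.88. Among the 1% O2 libraries it had 10.7 and 11.6 TPM in Control and 9.03 and 11.4 TPM in CypD OE. Only the CypD KO libraries stood apart (log2 fold change 1.45 ± 0.15, SE, limma adjusted p = 0.000264), and the value in CypD OE was -0.12 ± 0.15 (limma adjusted p = 0.55). *Sesn2* (chromosome 4, 132219335 to 132237815), for a leucine-binding inhibitor of mTORC1, had 9.2 and 9.54 TPM in WT, against 19.0 and 19.4 TPM in CypD KO (0.96 ± 0.07, limma adjusted p = 7.83e-05). Its TPM were 7.42 and 7.56 in Control and 8.52 and 8.59 in CypD OE (0.17 ± 0.07, limma adjusted p = 0.111). In a fit without a trend of the spread with expression, this last difference passed the test (limma adjusted p = 0.0374).

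*Eif4ebp1* (chromosome 8, 27750350 to 27805206), whose product holds the cap-binding protein eIF4E and so restrains translation, was higher in both comparisons. Its TPM were 46.4 and 45.4 in WT and 98.3 and 88.9 in CypD KO (log2 fold change 1.01 ± 0.07, SE, limma adjusted p = 3.93e-05). They were 51.2 and 47.7 in Control and 74.2 and 69.5 in CypD OE (0.53 ± 0.07, limma adjusted p = 0.00108). The change in CypD KO was larger than that in CypD OE by 0.48 ± 0.09 (limma adjusted p = 0.0053). *Eif2ak4* (GCN2), for the kinase that senses uncharged tRNA, had 15.0 ± 1.01 TPM (SD, n = 2) in WT, against 19.3 ± 0.106 TPM in CypD KO (log2 fold change 0.35 ± 0.08, limma adjusted p = 0.00989). Without WT replicate 1 this call was lost (0.28, limma adjusted p = 0.0545). In CypD OE the difference of *Eif2ak4* from Control was 0.14 ± 0.08 (limma adjusted p = 0.21).

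Of the 3 outputs of late stress, *Chac1* (chromosome 2, 119180757 to 119184866), for an enzyme that degrades glutathione, was the one that could be tested. It had 4.06 and 2.97 TPM in WT, against 7.89 and 9.85 TPM in CypD KO. In Control the values were 2.77 and 4.96 TPM and in CypD OE 6.72 and 5.52 TPM. It rose in CypD KO by a log2 fold change of 1.13 ± 0.25 (SE, limma adjusted p = 0.00843). The adjusted p from limma was 0.0501 without WT replicate 2 and 0.0513 without CypD KO replicate 2. The difference in CypD OE, 0.58 ± 0.25, did not pass (limma adjusted p = 0.108), although it did without Control replicate 2 (0.91, limma adjusted p = 0.0298). *Fgf21*, for a secreted hormone of the response, was listed at 0 in all 8 libraries. *Gdf15*, for another secreted stress factor, was listed at 0 in 6 libraries and at 0.07 TPM in the first CypD KO and the first CypD OE library, or approximately 1.4 fragments each. Expression of *Fgf21* and *Gdf15* was thus not detectable, or at the limit of detection, at this depth.

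**Figure D2:**
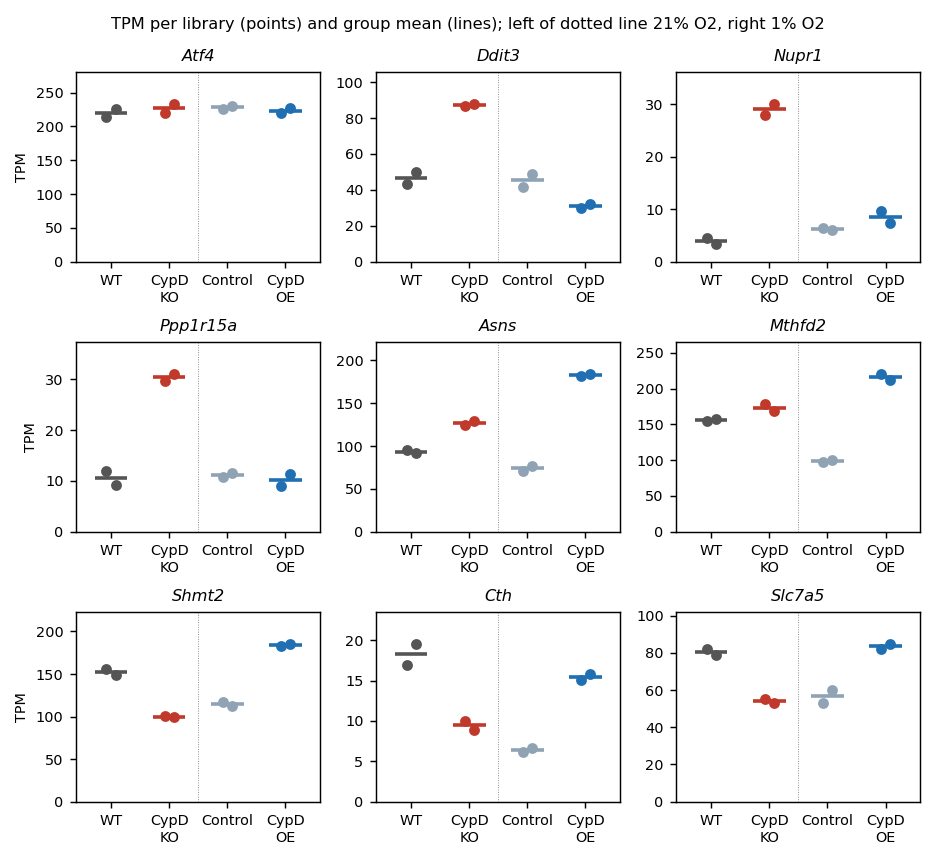
TPM (vertical axes, each from 0) of 9 members in the 4 groups, with a point for each library and a line at the mean of the 2 libraries, WT and CypD KO at 21% O2 to the left of the dotted line and Control and CypD OE at 1% O2 to the right. Atf4 is level, Ddit3, Nupr1 and Ppp1r15a are highest in CypD KO, Asns and Mthfd2 are highest in CypD OE, and Shmt2, Cth and Slc7a5 are lower in CypD KO than in WT and lower in Control than in CypD OE.

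The enzymes of asparagine, serine and one-carbon metabolism did not move together in CypD KO, where 2 of 7 (28.6%) were higher and 3 (42.9%) lower. The shares of all genes tested were 30.1% and 18.4%. All 7 were higher in CypD OE than in Control, against 19.0% of all genes. Their summed level was 1032 and 1051 TPM in WT and 917 and 902 TPM in CypD KO. It was 777 and 799 TPM in Control and 1284 and 1276 TPM in CypD OE. For each of the 7 the change in CypD KO was below that in CypD OE by the test of the difference (limma, adjusted p under 0.05), with a median difference of -0.87 on the log2 scale.

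*Asns* (chromosome 6, 7671667 to 7728461), for asparagine synthetase, was higher in both comparisons. It had 95.4 and 91.4 TPM in WT, against 124 and 129 TPM in CypD KO (log2 fold change 0.44 ± 0.05, SE, limma adjusted p = 0.000534). Its TPM were 70.6 and 77.1 in Control and 181 and 185 in CypD OE (95% interval of the log2 fold change 1.18 to 1.42, limma adjusted p = 8.26e-06). The ratio of means was 1.36 in the first and 2.48 in the second. *Mthfd2* (chromosome 6, 83282673 to 83302890), for the mitochondrial folate dehydrogenase, had 155 and 158 TPM in WT and 178 and 168 TPM in CypD KO. In Control the values were 98.0 and 101 TPM and in CypD OE 221 and 211 TPM. The log2 fold change in CypD OE was 1.11 ± 0.04 (limma adjusted p = 6.26e-06). That in CypD KO was 0.15 ± 0.04 (limma adjusted p = 0.023). This call was lost under median-of-ratios rescaling (0.03, limma adjusted p = 0.448) and in a fit without a trend (limma adjusted p = 0.0738). It was also lost without WT replicate 1 (0.13, limma adjusted p = 0.0988), WT replicate 2 (0.16, limma adjusted p = 0.0584) or CypD KO replicate 1 (0.11, limma adjusted p = 0.127).

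*Phgdh*, *Psat1* and *Psph* encode the 3 enzymes that make serine from 3-phosphoglycerate, and *Shmt2* the enzyme that turns serine into glycine in mitochondria. *Phgdh*, the most abundant member of the group in WT, fell from 294 ± 7.42 TPM (SD, n = 2) in WT to 219 ± 3.07 TPM in CypD KO. It rose from 202 ± 9.09 TPM in Control to 276.5 ± 0.0495 TPM in CypD OE. *Psat1* fell from 178 ± 3.03 TPM in WT to 128 ± 1.15 TPM in CypD KO, and rose from 134 ± 3.95 TPM in Control to 193 ± 0.792 TPM in CypD OE. *Shmt2* fell from 152 ± 4.33 to 99.9 ± 0.41 TPM in CypD KO, and rose from 115 ± 3.32 to 184 ± 2.35 TPM in CypD OE. The log2 fold changes of these 3 genes in CypD KO were -0.42, -0.47 and -0.60, and those in CypD OE were 0.45, 0.52 and 0.68, all with limma adjusted p of 0.000232 or less. For each of them both CypD KO libraries lay below both WT libraries, and both CypD OE libraries above both Control libraries.

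*Psph* (chromosome 5, 129841925 to 129864513), for the last enzyme of serine synthesis, had 21.9 and 24.4 TPM in WT and 25.0 and 22.2 TPM in CypD KO. There the groups overlapped (log2 fold change 0.03, 95% interval -0.21 to 0.26, limma adjusted p = 0.85). It rose from 13.2 and 15.2 TPM in Control to 25.2 and 25.8 TPM in CypD OE (0.81 ± 0.10, SE, limma adjusted p = 0.000988). *Mthfd1l*, for the enzyme that releases formate in mitochondria, had 144.5 ± 12.3 TPM (SD, n = 2) in WT and 139 ± 1.22 TPM in CypD KO (log2 fold change -0.06, limma adjusted p = 0.442). It was higher in CypD OE (202 ± 3.05 TPM) than in Control (149.5 ± 2.57 TPM, log2 fold change 0.43, limma adjusted p = 0.00137). Without WT replicate 1 it was lower in CypD KO (-0.14, limma adjusted p = 0.0353), as it was after rescaling (-0.17, limma adjusted p = 0.039).

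Of the 6 enzymes of proline, cysteine, alanine and gluconeogenesis, 3 were higher and 1 (16.7%) lower in CypD KO, and 4 were higher in CypD OE. Among all genes tested, 30.1% were higher and 18.4% lower in CypD KO, and 19.0% were higher in CypD OE. The share that was lower in CypD KO was thus not above that of all genes. *Cth* (chromosome 3, 157599868 to 157630739), for the enzyme that makes cysteine from cystathionine, moved in opposite directions. It had 16.9 and 19.6 TPM in WT, against 9.99 and 8.88 TPM in CypD KO, a ratio of means of 0.52 (log2 fold change -0.88 ± 0.10, SE, limma adjusted p = 0.000498). It rose from 6.14 and 6.63 TPM in Control to 15.0 and 15.8 TPM in CypD OE, a ratio of 2.41 (1.15 ± 0.10, limma adjusted p = 0.00026). The difference between its changes, -2.03 ± 0.14, was exceeded in size among the members only by that of *Nupr1* (2.23 ± 0.22), the second *Ddit3* row left aside. *Cbs*, for the enzyme before it in transsulfuration, was low and uneven. It had 1.41 and 2.82 TPM in WT and 0.16 and 2.18 TPM in CypD KO. In Control the values were 1.87 and 1.72 TPM and in CypD OE 1.59 and 4.26 TPM. The intervals of its fold changes spanned -1.93 to 0.61 and -0.87 to 1.67.

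*Gpt2* (chromosome 8, 86218810 to 86255577), for the mitochondrial alanine transaminase, had 4.86 and 6.41 TPM in WT, against 11.3 and 11.1 TPM in CypD KO (log2 fold change 0.89 ± 0.13, SE, limma adjusted p = 0.00161). Its TPM were 5.15 and 5.81 in Control and 7.55 and 7.03 in CypD OE (0.36 ± 0.13, limma adjusted p = 0.0757). *Pck2*, for the mitochondrial enzyme that makes phosphoenolpyruvate, was higher in both comparisons. It had 8.73 ± 0.0566 TPM (SD, n = 2) in WT, against 13.7 ± 0.325 TPM in CypD KO (log2 fold change 0.59, limma adjusted p = 0.00441). It rose from 6.74 ± 0.403 TPM in Control to 11.05 ± 1.66 TPM in CypD OE (0.63, limma adjusted p = 0.00462).

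*Pycr1* (chromosome 11, 120526484 to 120539269), for the last enzyme of proline synthesis, had 2.84 and 1.7 TPM in WT and 2.71 and 1.98 TPM in CypD KO. Its TPM were 1.42 and 1.01 in Control and 3.48 and 2.83 in CypD OE. The rise in CypD OE (0.91 ± 0.23, SE, limma adjusted p = 0.0188) was lost without Control replicate 2 (0.78, limma adjusted p = 0.0917) and without CypD OE replicate 1 (0.80, limma adjusted p = 0.0963). It was also lost without a filter on low TPM (limma adjusted p = 0.0555). *Aldh18a1*, for the first enzyme of proline synthesis, was higher in CypD KO by 0.27 and in CypD OE by 0.37 on the log2 scale (limma adjusted p = 0.0121 and 0.00474). Its call in CypD KO was lost after rescaling (0.16, limma adjusted p = 0.0719). The same held without WT replicate 1 (0.24, limma adjusted p = 0.0622) and without CypD KO replicate 1 (0.23, limma adjusted p = 0.0708).

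Of the 6 amino acid transporters tested, 3 were higher and 2 (33.3%) lower in CypD KO, and 4 were higher and 1 (16.7%) lower in CypD OE. Among all genes tested, 30.1% were higher and 18.4% lower in CypD KO, and 19.0% higher and 18.3% lower in CypD OE. The share that was lower in CypD OE was thus not above that of all genes. *Slc7a5* (LAT1), which takes up large neutral amino acids such as leucine, had 82.2 and 78.9 TPM in WT, against 55.4 and 52.8 TPM in CypD KO (log2 fold change -0.57 ± 0.06, SE, limma adjusted p = 0.000455). It rose from 53.3 and 60.1 TPM in Control to 82.3 and 85.0 TPM in CypD OE (0.56 ± 0.06, limma adjusted p = 0.000798). *Slc7a1*, a carrier of arginine and lysine, had 64.8 ± 1.41 TPM (SD, n = 2) in WT, against 53.2 ± 0.0424 TPM in CypD KO (-0.28, limma adjusted p = 0.00156). It rose from 59.7 ± 1.49 TPM in Control to 92.0 ± 1.94 TPM in CypD OE (0.61, limma adjusted p = 8.36e-05). *Slc3a2*, the heavy chain with which SLC7A5 pairs, passed the test in neither comparison, with log2 fold changes of -0.01 (95% interval -0.21 to 0.19) and 0.01 (-0.19 to 0.21). Its Control libraries were at 123 and 148 TPM.

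Carriers of small neutral amino acids were the transporters that were higher in CypD KO. *Slc1a4* (chromosome 11, 20252180 to 20282774), which exchanges alanine, serine and cysteine, had 7.87 and 8.56 TPM in WT, against 15.6 and 14.7 TPM in CypD KO (log2 fold change 0.81 ± 0.09, SE, limma adjusted p = 0.000357). It rose from 7.36 and 8.04 TPM in Control to 11.9 and 12.2 TPM in CypD OE (0.58 ± 0.09, limma adjusted p = 0.00234). *Slc6a9* (chromosome 4, 117691703 to 117732395), a glycine transporter, had 2.84 and 2.6 TPM in WT, against 6.99 and 5.84 TPM in CypD KO (0.99 ± 0.19, limma adjusted p = 0.00538). It rose from 2.69 and 1.54 TPM in Control to 5.84 and 6.53 TPM in CypD OE (1.23 ± 0.19, limma adjusted p = 0.00309).

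*Slc38a2* (SNAT2), which imports glutamine and alanine, had 142 ± 1.73 TPM (SD, n = 2) in WT and 161 ± 2.7 TPM in CypD KO. Its mean was 165 ± 3.38 TPM in Control and 145.5 ± 6.29 TPM in CypD OE. The changes were small and opposite (log2 fold changes 0.18 and -0.18, limma adjusted p = 0.00904 and 0.0112). The first was lost after rescaling (0.07, limma adjusted p = 0.141) and without CypD KO replicate 1 (0.16, limma adjusted p = 0.0548). The second was lost without Control replicate 2 (-0.16, limma adjusted p = 0.0602) or CypD OE replicate 2 (-0.14, limma adjusted p = 0.0596). *Slc7a3*, a further carrier of arginine and lysine that was below the filter, had 0.44 and 0.33 TPM in WT, against 0.8 and 0.82 TPM in CypD KO. Its TPM were 0.4 and 0.22 in Control and 0.61 and 0.64 in CypD OE.

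**Figure D3:**
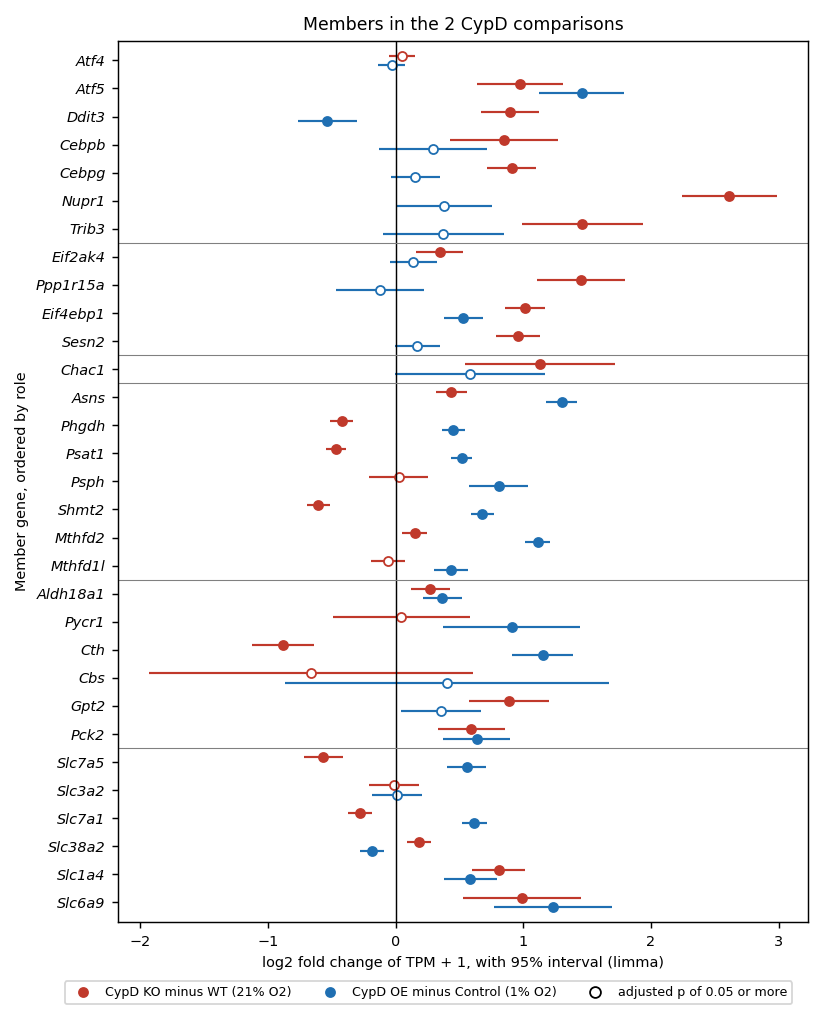
Log2 fold change of TPM + 1 with its 95% interval from limma (horizontal axis) for the 31 tested members (vertical axis, ordered by role), CypD KO minus WT in red and CypD OE minus Control in blue, with open points where the adjusted p was 0.05 or more. The red points lie to the right of the blue for Ddit3, Nupr1, Trib3 and Ppp1r15a and to the left for all 7 enzymes from Asns to Mthfd1l and for Cth, Slc7a5 and Slc7a1.

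Set side by side, these comparisons, which share no library, sorted the 31 tested members into 6 patterns. Higher in both were *Aldh18a1*, *Asns*, *Atf5*, *Eif4ebp1*, *Mthfd2*, *Pck2*, *Slc1a4* and *Slc6a9*, 8 members (25.8%), against 6.57% of all genes tested. Lower in CypD KO and higher in CypD OE were *Cth*, *Phgdh*, *Psat1*, *Shmt2*, *Slc7a1* and *Slc7a5*, 6 members (19.4%), against 5.13% of all genes. A further 9 members, against 15.9% of all genes, were higher in CypD KO and did not pass the test in CypD OE. Of these 9 all but *Gpt2* were regulators, sensing and feedback genes or *Chac1*. *Ddit3* and *Slc38a2* were higher in CypD KO and lower in CypD OE (6.45%, against 7.61% of all genes). *Mthfd1l*, *Psph* and *Pycr1* were higher in CypD OE and did not pass in CypD KO (9.68%, against 7.35%). *Atf4*, *Cbs* and *Slc3a2* passed the test in neither (9.68%, against 37.5%). No member was lower in both, against 4% of all genes. The change in CypD KO exceeded that in CypD OE for 8 members (*Ddit3*, *Cebpg*, *Nupr1*, *Trib3*, *Ppp1r15a*, *Eif4ebp1*, *Sesn2* and *Slc38a2*). These were 25.8% of the members, close to the 27.4% of all genes tested. It was below that in CypD OE for 10 members (32.3%), against 18.8% of all genes. These 10 were the 7 enzymes from *Asns* to *Mthfd1l* with *Cth*, *Slc7a5* and *Slc7a1*. Of the 7 tested members with the searched letters in their promoter window, *Asns*, *Pck2* and *Slc1a4* were higher in both comparisons, *Chac1*, *Nupr1* and *Trib3* in CypD KO and *Pycr1* in CypD OE. Of all genes tested, 6.57%, 15.9% and 7.35% had these patterns. Members searched without a match had them too, among them *Atf5*, *Mthfd2* and *Slc6a9* (both), *Cebpg* and *Sesn2* (CypD KO) and *Psph* (CypD OE). A link between the letters and the changes was not tested.

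Between Control at 1% O2 and WT at 21% O2, which differ in vector and selection as well as in oxygen, 2 members were higher and 10 lower, against 12.1% and 12.1% of all genes tested. The 10 were *Cth* (log2 fold change -1.38, limma adjusted p = 0.000279), *Atf5* (-0.99), *Psph* (-0.67), *Mthfd2* (-0.65), *Phgdh* (-0.54), *Slc7a5* (-0.50), *Shmt2* (-0.41), *Psat1* (-0.40), *Asns* (-0.34) and *Sesn2* (-0.29). Asparagine, serine and one-carbon enzymes were 6 of the 10. *Nupr1* (0.56, limma adjusted p = 0.0433) and *Slc38a2* (0.22, limma adjusted p = 0.00967) were higher. The call of *Nupr1* was lost without WT replicate 2 (0.40, limma adjusted p = 0.175) or either Control library (0.51 and 0.61, limma adjusted p = 0.156 and 0.104). That of *Sesn2* was lost without any of the 4 libraries compared (limma adjusted p = 0.0776 to 0.117). *Cebpb*, at -0.55 (limma adjusted p = 0.0658), passed the test without Control replicate 1 (-0.76, limma adjusted p = 0.0455).

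The libraries labelled CypD OE are also set beside WT, to give their levels, since both groups appear in the comparisons already described. Oxygen, vector, drug selection and the added *Ppif* of the label differ together between CypD OE and WT and cannot be told apart there. Against WT, 12 members were higher and 1 lower, against 14.0% and 13.7% of all genes tested. *Ddit3* was the one that was lower (-0.57 ± 0.10, SE, limma adjusted p = 0.00579). *Asns* (0.96), *Slc6a9* (0.95), *Nupr1* (0.94) and *Eif4ebp1* (0.64) had the largest fold changes of the members past the test. *Phgdh* (-0.09, 95% interval -0.18 to 0.00), *Slc7a5* (0.05, -0.10 to 0.21) and *Cth* (-0.23, -0.47 to 0.01) were among those that did not pass the test against WT.

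Genes around the response were followed by 6 further lists. Of all genes tested, 30.1% were higher and 18.4% lower in CypD KO, with a median log2 fold change of 0.09. In CypD OE 19.0% were higher and 18.3% lower, with a median of 0.00. In CypD KO, 8 of 13 tested other ATF4 targets (61.5%) were higher and 1 (7.69%) lower, with a median log2 fold change of 0.49. In CypD OE 2 (15.4%) were higher and 5 (38.5%) lower (median -0.08). *Ddit4* (REDD1), for an inhibitor of mTORC1 that hypoxia also induces, had 9.3 and 7.6 TPM in WT, against 39.8 and 40.1 TPM in CypD KO (log2 fold change 2.12, limma adjusted p = 8.46e-06). It fell from 41.5 and 42.1 TPM in Control to 5.83 and 5.63 TPM in CypD OE (-2.67, limma adjusted p = 4.67e-06). *Slc7a11*, for the cystine carrier, had 8.82 and 9.69 TPM in WT and 10.6 and 10.96 TPM in CypD KO. It rose from 1.68 and 1.4 TPM in Control to 31.0 and 28.8 TPM in CypD OE, a ratio of means of 19.4 (log2 fold change 3.61 ± 0.10, SE, limma adjusted p = 1.73e-06). *Gadd45a*, a stress gene of growth arrest, had 5.08 and 7.11 TPM in WT, against 37.7 and 37.3 TPM in CypD KO (2.46 ± 0.16, limma adjusted p = 3.93e-05). Its Control and CypD OE libraries, at 5.45 to 7.27 TPM, overlapped.

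Of 9 genes for the eIF2 kinases and their control, 4 (44.4%) were higher and 3 (33.3%) lower in CypD KO. The shares of all genes tested were 30.1% and 18.4%. In CypD OE 1 (11.1%) was higher and 2 (22.2%) lower, against 19.0% and 18.3% of all genes. *Oma1*, for the mitochondrial protease that passes stress to the kinase HRI, had a mean of 8.25 TPM in WT, against 12.5 TPM in CypD KO (log2 fold change 0.55, limma adjusted p = 0.00698). Its mean fell from 8.91 TPM in Control to 6.67 TPM in CypD OE (-0.36, limma adjusted p = 0.0429). *Eif2ak3* (PERK) rose from 13.8 to 19.7 TPM in CypD KO, and *Eif2ak2* (PKR) from 28.3 to 39.8 TPM (log2 fold changes 0.49 and 0.48, limma adjusted p = 0.0038 and 0.000838). The 3 lower in CypD KO were *Eif2ak1*, the gene of HRI itself (-0.16, limma adjusted p = 0.0271), *Ppp1r15b* (-0.36) and *Dnajc3* (-0.30). Of 8 subunits of eIF2 and its exchange factor eIF2B, 6 (75.0%) were lower in CypD KO (median -0.27). In CypD OE 3 (37.5%) were higher and 1 (12.5%) lower. *Eif2b3* was lower in CypD KO (-0.24) and higher in CypD OE (0.61), *Eif2b4* was lower in CypD KO (-0.34), and *Eif2b2* was lower in CypD OE (-0.54).

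The cytosolic aminoacyl-tRNA synthetases, which attach amino acids to tRNA and many of which ATF4 can induce, were mixed. Of 20, 5 were higher and 7 lower in CypD KO (median -0.10), and 6 were higher and 5 lower in CypD OE (median 0.07). *Iars1* (log2 fold changes 0.14 and 0.65) and *Gars1* (0.17 and 0.48) were higher in both. In CypD KO their limma adjusted p were 0.0422 and 0.0223, and other settings were not examined for this list. *Mars1* was lower in CypD KO (-0.51). Of 11 other enzymes of one-carbon and glycine metabolism, 1 (9.09%) was higher and 4 (36.4%) lower in CypD KO. In CypD OE 4 (36.4%) were higher and none lower. The one that was higher in CypD KO was *Aldh1l2*, the mitochondrial enzyme that frees tetrahydrofolate from its formyl group, with 21.8 and 25.5 TPM in WT, against 58.6 and 51.6 TPM in CypD KO (1.19 ± 0.10, SE, limma adjusted p = 0.000107). *Gcsh*, the carrier protein of glycine cleavage, was lower in CypD KO (-0.33) and higher in CypD OE (0.96), and *Aldh1l1*, the cytosolic counterpart of *Aldh1l2*, was higher in CypD OE (1.04, limma adjusted p = 0.00485).

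The ATF6 and XBP1 arms are the branches of the unfolded protein response that do not pass through eIF2. Of 14 targets, 11 were lower in CypD KO (median -0.30), against 18.4% of all genes tested. In CypD OE 13 of 14 were lower (median -0.56), against 18.3% of all genes. All 14 were higher in Control than in WT (median 0.44), against 12.1% of all genes. *Sdf2l1*, a chaperone cofactor, had group means of 69.0 TPM in WT and 53.2 TPM in CypD KO, and of 114 TPM in Control and 49.5 TPM in CypD OE. *Pdia6*, a disulfide isomerase, was at 397.5, 302, 588 and 294.5 TPM in the same order. *Dnajb9*, a cochaperone of BiP, was one of 2 that were higher in CypD KO. Its means were 19.2 TPM in WT and 44.4 TPM in CypD KO, and 30.4 TPM in Control and 16.4 TPM in CypD OE (log2 fold changes 1.17 and -0.86, limma adjusted p = 1.42e-05 and 9.11e-05).

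**Figure D4:**
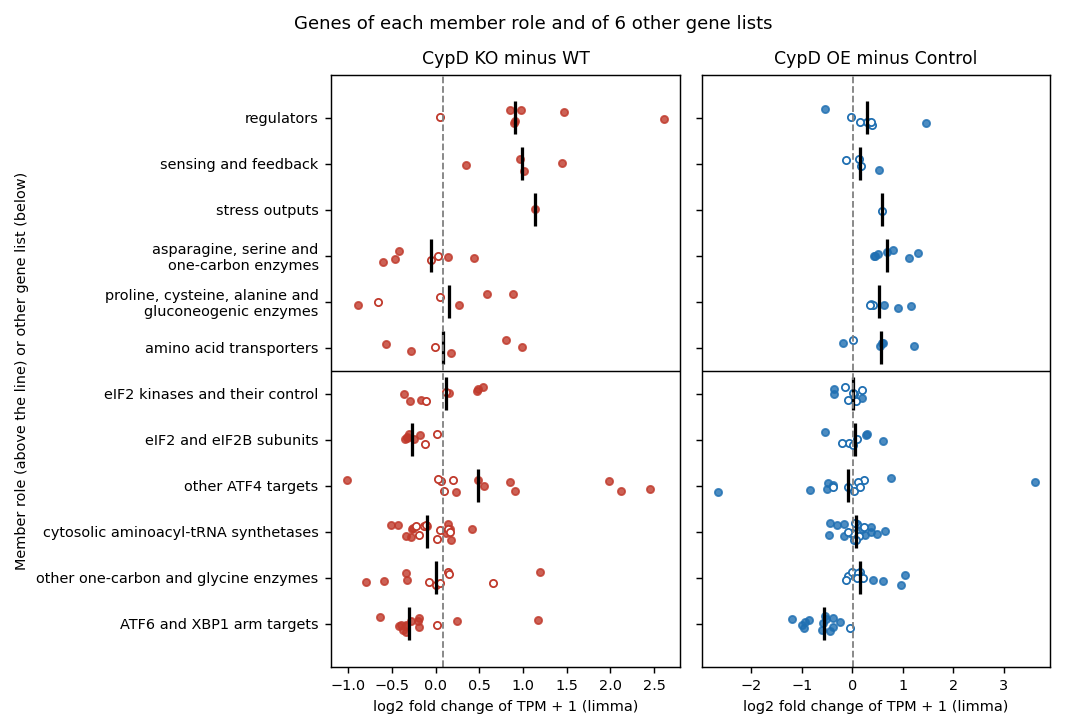
Log2 fold change of TPM + 1 (horizontal axes) of each tested gene in the 6 member roles (above the line) and the 6 other lists (below it), in CypD KO minus WT (left) and CypD OE minus Control (right). Filled points had an adjusted p under 0.05 (limma), black bars are list medians and the dashed lines the medians of all 13526 genes; regulators other than Atf4 and all sensing genes lie right of the dashed line on the left panel (list medians 0.91 and 0.99), the asparagine, serine and one-carbon enzymes on the right panel (median 0.68), and the ATF6 and XBP1 targets mostly left of it in both.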

How the data were processed

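The deposited file is a table of TPM for 55414 genes in 8 libraries of B16F10 cells, 2 per group. The authors depleted ribosomal RNA, sequenced pairs of 150-base reads, used Cutadapt 3.4 for trimming, STAR 2.7.8a for alignment to GRCm39 and RSEM 1.3.1 for abundance, which divides reads shared by several genes among them. Libraries were assigned to groups by the sample labels, and replicate 1 is the library whose name has no suffix. TPM in a library depend on all its other genes. The authors tested counts with DESeq2 1.26.0, and counts were not used here.

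Of these genes, 13526 had 1 TPM or more in 2 or more libraries. They were compared on the scale log2(TPM + 1) by limma 3.58.1 (R 4.3.3), using eBayes with a trend after lmFit, with 4 group means and a shared spread, two-sided, with Benjamini-Hochberg adjustment and a threshold of 0.05. With 2 libraries a group, the smallest p of an exact permutation test is 0.333. A fragment on 1000 effective bases was worth 0.0815 to 0.098 TPM per library, estimated from the steps of low values, of which 81.8% to 84.8% were whole within 0.15, where even spacing would give 30%. Genes above 0 numbered 17942 and 18036 in WT, 19456 and 19692 in CypD KO, 18184 and 18335 in Control, and 18268 and 18333 in CypD OE. Coordinates of genes are from GENCODE vM39 on GRCm39, matched by identifier.

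The members and the other lists were chosen with earlier results of these data known. Every library is given for *Atf4*, *Ddit3*, *Trib3* and members with an adjusted p under 0.05 and a log2 fold change of at least 0.8 in size in a CypD comparison (19 in all), and for some others whose values were seen first. Of each other list up to 3 genes are named for the largest changes past the threshold, and of the eIF2 kinase list also those lower in CypD KO.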

Additional observations from a re-analysis of the deposited data

How the results depend on the processing

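The 10 counts of members and 81 member fold changes were recomputed with a replicate block, median-of-ratios rescaling, a pseudocount of 0.1, a filter of 5 TPM or none, the libraries of the comparison alone, eBayes without a trend, and without each replicate in turn. The settings for the difference between the CypD comparisons, and for members beyond the 19 given in full, were chosen after seeing the data. Of 886 alternative values, 828 kept their direction and side of the threshold, 30 (of 9 results) lost the threshold and 5 gained it. None of the values past the threshold changed sign in these settings. With the replicate block, 19 members were higher and 6 lower in CypD KO, and 17 higher and 2 lower in CypD OE. Of all 13526 genes, 3894 were then higher and 2391 lower in CypD KO, and 2393 higher and 2342 lower in CypD OE. Libraries with the same number correlated in their deviations at 0.11 and 0.00 in these comparisons. Whether the numbers pair libraries is not stated in the sources used here. Under the block the lower call of *Sesn2* in Control against WT was lost (limma adjusted p = 0.0504). Members higher in Control than in WT were 1, in place of 2, without a filter, with the libraries of the comparison alone and without a trend, and 0 to 2 when a library was left out. Members lower in CypD OE than in WT were 3 after rescaling and 2 with the libraries of the comparison alone, in place of 1, and 1 to 2 when a library was left out. Members lower in CypD OE than in Control were 1 to 2 when a library was left out. Of values not past the threshold, those in CypD KO against WT changed sign after rescaling for *Atf4* (-0.065), *Psph* (-0.084) and *Pycr1* (-0.033). With a library left out, fold changes on both sides of 0 were found in CypD KO for *Psph* (-0.058 to 0.109), *Pycr1* (-0.208 to 0.300), *Mthfd1l* (-0.143 to 0.029), *Cbs* (-1.387 to 0.068) and *Slc3a2* (-0.041 to 0.019). The same held in CypD OE against Control for *Ppp1r15a* (-0.277 to 0.031), *Cbs* (-0.109 to 0.913) and *Slc3a2* (-0.124 to 0.145). In Control against WT it held for *Ddit3* (-0.152 to 0.072), *Trib3* (-0.372 to 0.197), *Ppp1r15a* (-0.092 to 0.255), *Chac1* (-0.250 to 0.411) and *Gpt2* (-0.195 to 0.143). The cause was not tested. Fits that leave out a library assume that the lone library of its group varies like the others.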
